A study of Bos taurus with 20 samples.

Results

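Tubular bovine conceptuses were compared with ovoid ones among conceptuses that had been exposed to interleukin 6 as embryos. The members are the libraries whose titles name IL6, 10 of the 20 libraries of the series: 4 tubular and 6 ovoid. Each library is 1 whole conceptus. On day 5 of culture after in vitro fertilisation the drops received recombinant bovine IL6 (100 ng/ml), and the embryos remained in them up to day 7.5, when blastocysts went to transfer. The other 10 conceptuses, 6 ovoid and 4 tubular, came from embryos given the carrier alone and are used here as controls. Libraries were made from total RNA after removal of ribosomal RNA, with paired 150 nt reads.

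The IL6 titles open with 1 of 2 codes, c6186 and c9007, whose meaning the labels do not give. Code c6186 holds 4 ovoid conceptuses (2 male, 2 female) and 2 tubular ones (1 male, 1 female). Code c9007 holds 2 ovoid conceptuses, both female, and 2 tubular ones (1 male, 1 female). Replicates were numbered in accession order: ovoid 1 to 4 and tubular 1 and 2 are of c6186, and ovoid 5 and 6 and tubular 3 and 4 are of c9007. Because both codes hold both shapes, the shape difference was estimated within title code, with sex as a further term. Among controls only code c5036 holds both shapes, with 2 ovoid conceptuses (1 male, 1 female) and 2 tubular ones, both male.

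After hatching, the bovine blastocyst first grows into an ovoid, then a tubular and at last a filamentous conceptus. Most of this growth is of the trophectoderm and the extraembryonic endoderm beneath it, while the embryonic disc stays small. The elongating trophectoderm secretes interferon tau, the signal by which the cow recognises pregnancy. IL6 is a cytokine that acts through its receptor and the shared subunit gp130 on JAK and STAT3, and in cattle embryos it is known to favour the inner cell mass. The files give Ensembl identifiers without gene names, so none of these cell types could be checked by its markers, and genes are described here by identifier, position and annotated structure. In whole conceptuses a smaller share of a cell type and less RNA per cell cannot be told apart.

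The libraries of c6186 held 2298491 to 6262473 gene counts and those of c9007 held 8589036 to 11366747. By shape they ranged from 2298491 to 10296130 in ovoid and from 4845404 to 11366747 in tubular conceptuses. Depth therefore followed title code more closely than shape, and the log2 total was 0.34 higher in tubular conceptuses within code (two-sided exact permutation p = 0.222, adjusted over 5 tests 0.556). Ovoid replicate 1 stood apart from the rest: across genes it had a median Spearman correlation of 0.856 with its 9 fellow IL6 libraries, while the others had 0.909 to 0.950. Pairs of c9007 conceptuses correlated at 0.969 to 0.985 and pairs of c6186 conceptuses at 0.750 to 0.967. A pair of single-exon genes of chromosome X, of 126 and 85 nt, was picked because it follows the labelled sex most closely in the IL6 libraries. In the 10 controls, which that rule did not use, the pair measured 6.96 to 25.6 CPM (counts per 1000000 counts of the library) in the 4 females and 0 to 0.842 CPM in the 6 males. In the IL6 libraries, by which it was picked, it measured 7.12 to 39.9 CPM in females and 0.166 to 2.87 CPM in males. The highest male values were those of ovoid replicates 1 and 2.

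Between ovoid and tubular IL6 conceptuses no gene was called by the edgeR quasi-likelihood test. Of 13486 genes tested, 0 (0%) passed a Benjamini-Hochberg adjusted p of 0.05, and the smallest adjusted p was 0.884. At an unadjusted p under 0.05 there were 369 genes (2.74%), 203 of them higher (1.51%) and 166 lower (1.23%) in tubular conceptuses. That share is below the 5% that this threshold passes on average where no gene differs. Over all genes tested, 6348 had a positive and 7138 a negative log2 fold change from ovoid to tubular, with a median of -0.02. DESeq2, with the same terms, called 5 genes (0.0371%), 2 higher and 3 lower in tubular conceptuses, and 540 at an unadjusted p under 0.05. The 4 identifiers printed next have the smallest p in each direction, and with a gene of chromosome 3 given after them they are the 5 that DESeq2 called.

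ENSBTAG00000013888 is a gene of 2 exons and 2861 nt on the minus strand of chromosome 21 (47777670 to 47782907, ARS-UCD1.2). In CPM scaled by TMM factors, it measured 11.9, 11.2, 4.75, 6.22, 5.42 and 5.18 in ovoid replicates 1 to 6 and 19.2, 13.1, 20.2 and 23.5 in tubular replicates 1 to 4. All 4 tubular values lay above all 6 ovoid values, and the 2 highest ovoid values belonged to the 2 male ovoid conceptuses. The log2 fold change was 1.28 ± 0.25 (SE; edgeR adjusted p = 0.884, DESeq2 adjusted p = 0.0243), with 0.96 within c6186 and 1.71 within c9007. Such values within a code come from 1 fit of all 10 libraries with a shared sex term, unless said otherwise. In controls of c5036 the 2 ovoid conceptuses measured 29.5 and 17.7 CPM and the 2 tubular ones 41.3 and 29.0 CPM, unscaled by TMM factors, so the shapes overlapped there. The ovoid value of 29.5 CPM was of the female and that of 17.7 CPM of the male, while both tubular conceptuses were male. In the fit with a sex term the control difference was 0.05. The gene was low in depth, with 10 counts in ovoid replicate 3.

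ENSBTAG00000015510 has 17 exons and 3470 nt on the plus strand of chromosome 4 (106164367 to 106180774). It measured 7.29, 18.9, 33.7, 21.2, 19.4 and 20.5 CPM in ovoid replicates 1 to 6 and 53.8, 87.0, 35.8 and 22.0 CPM in tubular replicates 1 to 4. The tubular conceptuses lay above the ovoid ones of their own code, but tubular replicate 4 of c9007 was below ovoid replicate 3 of c6186. Its log2 fold change was 1.50 ± 0.30 (SE; edgeR adjusted p = 0.884, DESeq2 adjusted p = 0.0372), with 1.85 within c6186 and 0.93 within c9007. Controls of c5036 measured 40.1 and 65.5 CPM when ovoid and 42.4 and 71.8 CPM when tubular, unscaled, so the shapes overlapped there and all 4 values lay above the highest IL6 ovoid value.

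Toward lower values in tubular conceptuses, ENSBTAG00000048743 has a single exon of 393 nt on the minus strand of chromosome 23 (31758291 to 31758683). It measured 139, 101, 121, 136, 159 and 168 CPM in ovoid replicates 1 to 6 and 64.6, 73.1, 82.1 and 98.2 CPM in tubular replicates 1 to 4. The groups did not overlap, though ovoid replicate 2 and tubular replicate 4 were close. The log2 fold change was -0.85 ± 0.16 (SE; edgeR adjusted p = 0.884, DESeq2 adjusted p = 0.00451), and it was almost the same in both codes, -0.85 in c6186 and -0.84 in c9007. Controls of c5036 gave 134 and 170 CPM when ovoid and 129 and 169 CPM when tubular, a fitted difference of -0.06.

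ENSBTAG00000038476 has 2 exons and 393 nt on the plus strand of chromosome 3 (20758497 to 20763522) and overlaps 1 other annotated gene. It measured 234, 172, 196, 125, 131 and 141 CPM in ovoid replicates 1 to 6 and 95.2, 99.1, 63.0 and 86.8 CPM in tubular replicates 1 to 4. Every tubular value was below every ovoid value, and the log2 fold change was -0.94 ± 0.19 (SE; edgeR adjusted p = 0.884, DESeq2 adjusted p = 0.0243). The fifth gene called by DESeq2 lies beside it on the minus strand of chromosome 3 (20746488 to 20747479, 432 nt), and its values were described after they were seen. It measured 177 to 305 CPM in ovoid and 109 to 137 CPM in tubular conceptuses, again without overlap, with a log2 fold change of -0.79 ± 0.17 (SE; DESeq2 adjusted p = 0.0243). In controls of c5036 the fitted difference was -0.38 for each of these neighbours.

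**Figure D1:**
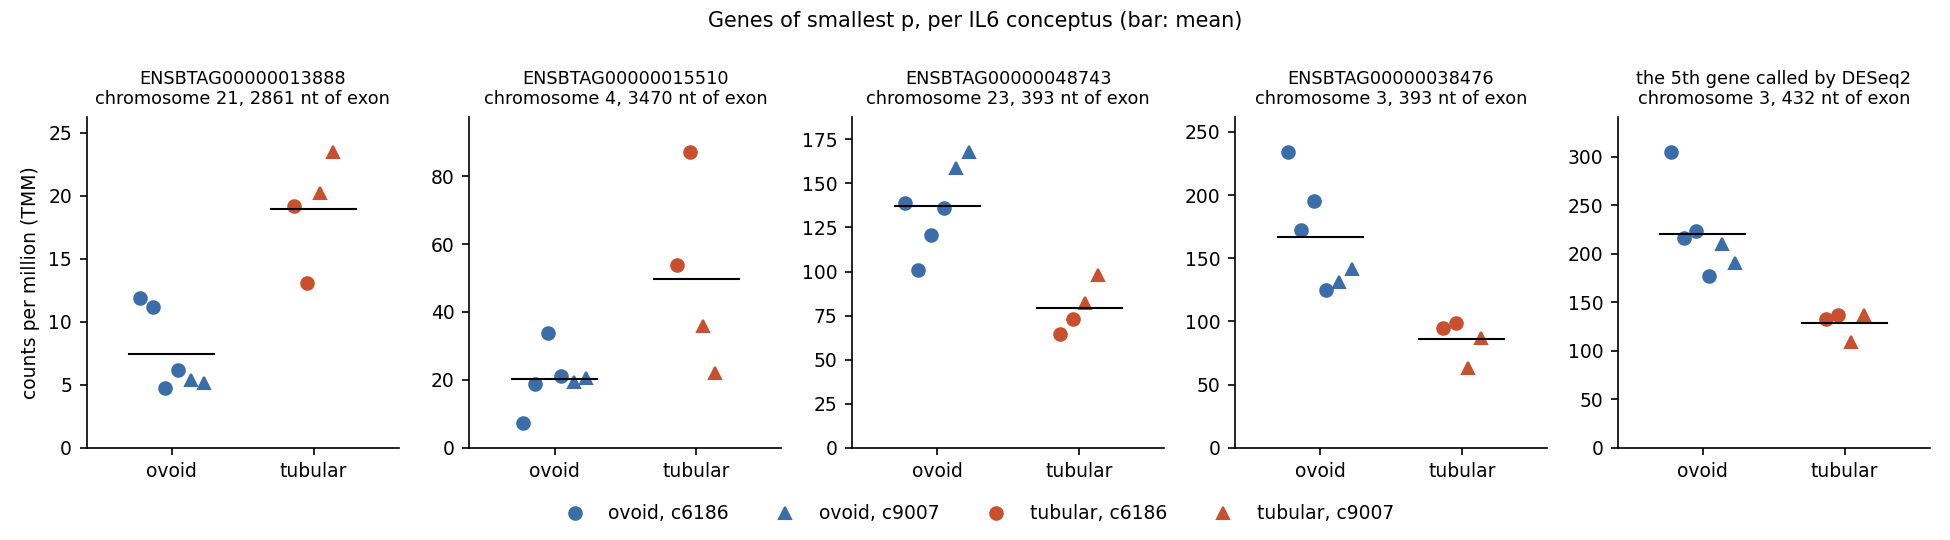
CPM (vertical axes, TMM-scaled, from 0) of the 5 genes that DESeq2 called, 1 point per IL6 conceptus, with ovoid in blue, tubular in orange, circles for c6186, triangles for c9007 and a bar at each mean. The tubular points lie above the ovoid ones in the first panel and below them in the last 3 panels, and overlap them in the second panel.

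A count that needs no model was made of genes whose shapes did not overlap. In 239 genes (1.77%) every tubular conceptus was above every ovoid conceptus of its own title code in both codes, and in 153 genes (1.13%) every tubular conceptus was below them. Shape can be assigned within title code in 90 ways, 1 of which gives each direction. About 1 gene in 90 would thus fall in each direction where shape makes no difference. The 153 genes are close to that share and the 239 genes above it. The count takes no account of sex, and how far such counts spread around that share was not tested. Over all 10 conceptuses without regard to code, 62 genes (0.46%) had all tubular values above and 39 (0.289%) all tubular values below the ovoid ones. The 239 genes had a median annotated exon length of 3501 nt and the 153 genes one of 1478 nt, against 2400 nt for all genes tested. Of the 153, 57 (37.3%) had over 200 and up to 1000 nt of exon, which holds for 11.1% of all genes tested and for 7 (2.93%) of the 239.

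Grouped by annotated exon length, the median log2 fold change was negative over 200 and up to 2000 nt and positive in longer classes. Of the 479 genes tested with over 200 and up to 500 nt, 371 had a negative and 108 a positive log2 fold change. The median of this class was -0.41. An unadjusted p under 0.05 was found for 46 of the 479 (9.60%, against 2.74% of all genes tested), all lower in tubular conceptuses. The 1016 genes of over 500 and up to 1000 nt had a median of -0.24, with 764 negative, and the 3538 genes of over 1000 and up to 2000 nt one of -0.11. The median was 0.01 for over 2000 and up to 4000 nt, 0.09 for over 4000 and up to 8000 nt, and 0.14 for the 290 genes above 8000 nt, 196 of which were positive. Genes of up to 200 nt went the other way from the next class, with a median of 0.15 and 187 of 292 positive. Without tubular replicate 1 the median was 0.04 for genes of up to 200 nt and 0.08 for those above 8000 nt. The edgeR test called 0 genes in every class.

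The pattern had unequal sizes in the title codes. In the classes of over 200 and up to 1000 nt together, 1495 genes, the median log2 fold change was -0.46 within c6186 and -0.07 within c9007, and 1152 and 848 genes were negative there. The c9007 value depended on the sex term, since both ovoid conceptuses of that code are female: as a plain difference of mean log2 CPM, with no sex term, the median was -0.15 in c9007 (973 of 1495 genes negative) and -0.38 in c6186 (1103 negative). In controls of c5036 the fitted median was -0.01, with 775 of the 1495 genes negative. Single-exon genes of over 200 and up to 500 nt had a median of -0.55 (193 of 234 negative) and multi-exon genes of that length one of -0.34 (178 of 245 negative). Whether these medians differ between the codes, or between IL6 and control conceptuses, was not tested.

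**Figure D2:**
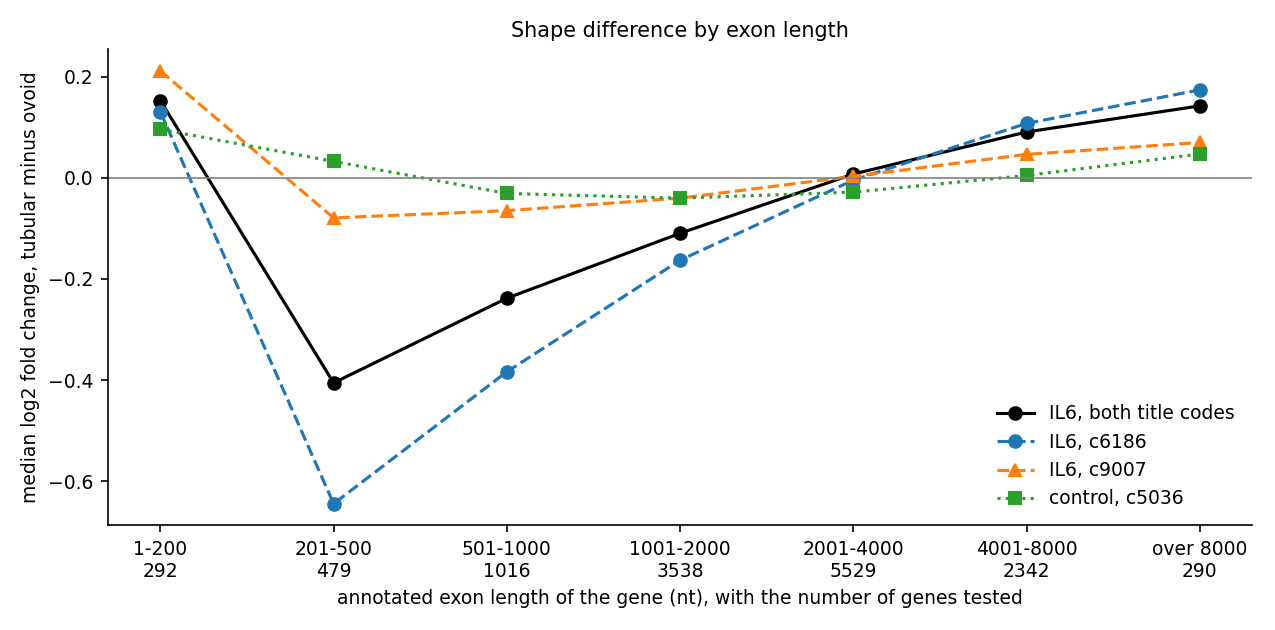
Median log2 fold change from ovoid to tubular (vertical axis) in 7 classes of annotated exon length (horizontal axis, with the number of genes tested), for all IL6 conceptuses, each IL6 title code and the control code c5036. The median is lowest between 200 and 500 nt, at -0.41 over both IL6 codes, and lies closer to 0 in c9007 and in controls. All values come from fits with a sex term.

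The short genes did not separate the shapes conceptus by conceptus. With each gene centred on its mean log2 CPM over the 10 libraries, the median over the 1495 genes was 0.38, -0.24, 0.26, 0.15, 0.08 and 0.15 in ovoid replicates 1 to 6. It was -0.47, -0.01, -0.03 and -0.04 in tubular replicates 1 to 4. Ovoid replicate 2 thus lay below 3 of the 4 tubular conceptuses, and the extremes were ovoid replicate 1, the library of lowest correlation, and tubular replicate 1. Tubular replicate 1 also had the largest share of counts in its 10 most abundant genes, 14.1%, against 6.55% to 10.7% in the other 9 libraries. Without ovoid replicate 1 the median over these genes was -0.15 in place of -0.29 (1046 of 1473 genes negative), and with limma voom and sample quality weights it was -0.12. In the genes of up to 200 nt the centred median was 0.72, -0.04, -0.06 and -0.28 in tubular replicates 1 to 4. The ovoid conceptuses ran from -0.42 to 0.48 there. Above 8000 nt it was 0.40, 0.11, -0.04 and -0.07 in tubular replicates 1 to 4, against -0.24 to 0.19 in ovoid conceptuses. The part of these differences between libraries in the medians was not tested.

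A cluster of short genes on chromosome 23 had lower values in tubular conceptuses. Among 394 stretches of 1 Mb that each hold at least 10 tested genes, the stretch from 31000001 to 32000000 of chromosome 23 had the largest share of genes at an unadjusted p under 0.05, 16 of 45 (35.6%), and the lowest median log2 fold change, -0.65. It was chosen by those values, so they describe it and test nothing. Its 37 tested genes of over 200 and up to 1000 nt all had a negative log2 fold change, with a median of -0.67. Of the 37, 14 (37.8%) had an unadjusted p under 0.05, against 2.74% of all genes tested. The median was -0.85 within c6186, with 36 of 37 negative, and -0.31 within c9007, with 31 of 37 negative. In controls of c5036 it was -0.03, with 20 of 37 negative. The next stretch, 30000001 to 31000000, had a median of -0.31 and 18 of 23 genes negative.

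Summed over these 37 genes, the level was 5091, 2611, 3179, 4602, 4742 and 4088 CPM in ovoid replicates 1 to 6, and 1873, 2427, 3086 and 3412 CPM in tubular replicates 1 to 4. In each title code both tubular conceptuses were below all ovoid ones. Across codes, tubular replicates 3 and 4 were above ovoid replicate 2, and tubular replicate 4 was also above ovoid replicate 3. The means were 4052 ± 969 CPM (SD, n = 6) in ovoid and 2700 ± 686 CPM (SD, n = 4) in tubular conceptuses. Since the genes were picked by this contrast, no test is given. Without ovoid replicate 1 the median log2 fold change of the cluster was -0.48, with 36 of 36 genes negative, and without tubular replicate 1 it was -0.57.

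The stretch of chromosome 3 that holds the 2 neighbouring genes above (20000001 to 21000000) was chosen because it holds them, so its values too describe it and test nothing. All 7 of its tested genes of over 200 and up to 1000 nt were negative, with a median of -0.70, of -0.83 within c6186 and of -0.44 within c9007. Of the 7, 5 (71.4%) had an unadjusted p under 0.05, against 2.74% of all genes tested. The median was -0.08 in controls of c5036. Their summed level was 807, 527, 554, 514, 500 and 501.2 CPM in ovoid replicates 1 to 6 and 319, 343, 316 and 382 CPM in tubular replicates 1 to 4. The shapes did not overlap, and the tubular values spread over a narrower range than the ovoid ones. The 18 other tested genes of that stretch had a median of -0.10.

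In cattle, as in other mammals, the histone genes expressed during DNA replication are short, mostly without introns, and clustered. In the RefSeq gene table at hand, of the assembly ARS-UCD2.0, 57 of 76 genes with a histone symbol lie on chromosome 23 and 11 on chromosome 3. The identifiers of the files could not be matched to that table, so which genes of the 2 stretches are histone genes was not determined. Outside both stretches the 1451 genes of over 200 and up to 1000 nt had a median of -0.27, close to the -0.29 with them. Genes in near-identical copies share reads, and the counts carry no strand, so single values in such clusters are uncertain.

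**Figure D3:**
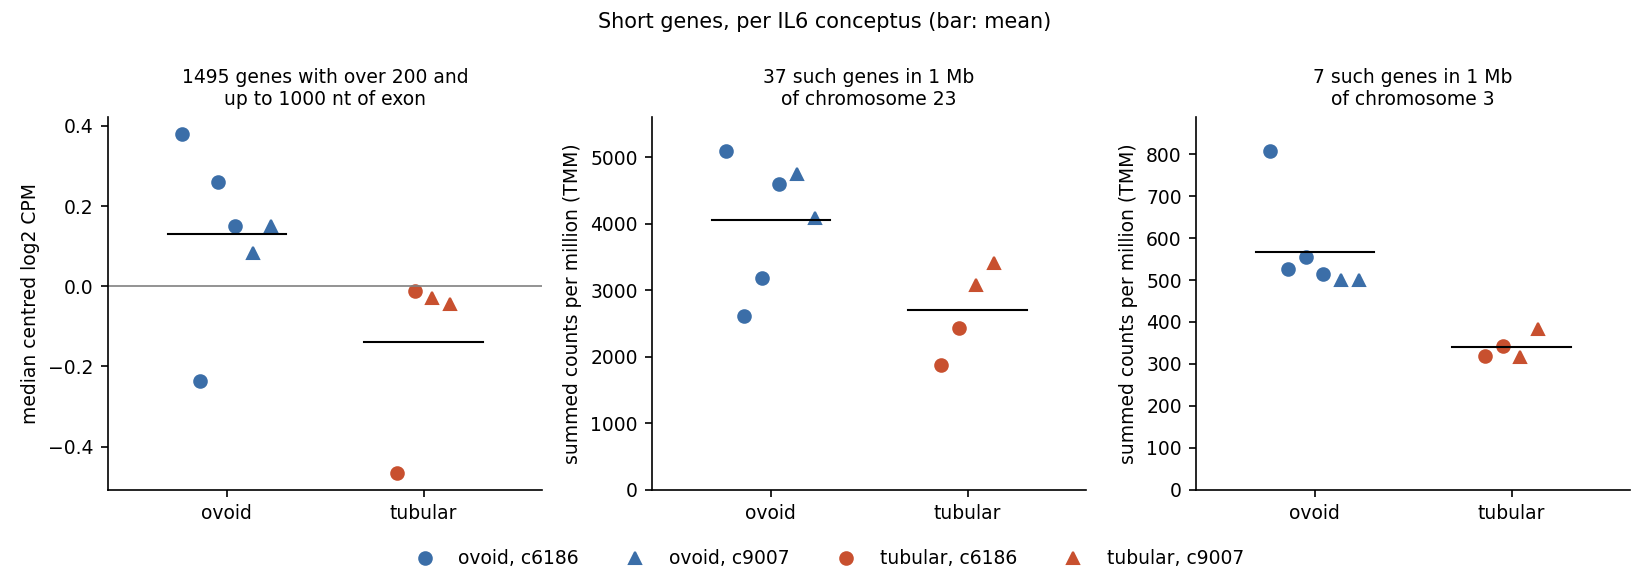
Per IL6 conceptus, the median centred log2 CPM of the 1495 genes with over 200 and up to 1000 nt of exon (left) and the summed CPM, from 0, of such genes in 1 Mb of chromosome 23 (37 genes, centre) and of chromosome 3 (7 genes, right), with bars at the means. The shapes overlap on the left, separate within each title code in the centre, and do not overlap on the right.

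By chromosome, X and the mitochondrial genome were farthest from 0, and the medians of the 29 autosomes ran from -0.10 on chromosome 8 to 0.04 on chromosome 29. On chromosome X, 341 of 453 tested genes had a negative log2 fold change, with a median of -0.23, and 11 (2.43%) had an unadjusted p under 0.05, 8 lower and 3 higher, against 2.74% of all genes tested. The median was -0.37 within c6186, -0.12 within c9007 and -0.11 in controls of c5036, and without ovoid replicate 1 it was -0.11. Per library the centred median ran from -0.32 to 0.37 in ovoid and from -0.42 to 0.07 in tubular conceptuses, with the lowest value of each shape in a male. Chromosome X took 2.27% ± 0.376 (SD, n = 4) of the counts in tubular and 2.62% ± 0.366 (SD, n = 6) in ovoid conceptuses, a difference within code of -0.39 percentage points (two-sided exact permutation p = 0.178, adjusted over 5 tests 0.556). That permutation took no account of sex. Over both shapes the share was 1.82% to 2.42% in males and 2.47% to 3.06% in females. Both ovoid conceptuses of c9007 are female, so sex enters these values, and its part was not tested.

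The mitochondrial genome encodes subunits of the respiratory chain with their own ribosomal and transfer RNAs. Of its 26 tested genes, 23 were positive from ovoid to tubular, with a median of 0.35, of 0.24 within c6186 and 0.80 within c9007. Controls of c5036 had a median of 0.39. The IL6 median rested on single libraries: it was 0.19 without ovoid replicate 1, 0.23 without ovoid replicate 6, 0.21 without tubular replicate 1, 0.22 without tubular replicate 3, 0.54 without ovoid replicate 5 and 0.81 without tubular replicate 2. The mitochondrial share of the counts was 1.72%, 2.89%, 2.98%, 3.31%, 2.65% and 1.46% in ovoid replicates 1 to 6 and 3.16%, 2.14%, 3.67% and 2.43% in tubular replicates 1 to 4. The shapes overlapped, and the difference of 0.39 percentage points within code did not pass the test (two-sided exact permutation p = 0.444, adjusted over 5 tests 0.556). It was 0.0875 points without ovoid replicate 6 and 0.079 points without tubular replicate 3. The number of genes with a count and the share in the 10 most abundant genes did not pass it either (exact permutation p = 0.578 and 0.422).

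For a few genes the shape difference itself differed between the 2 title codes. In the test of the difference itself, 8 genes (0.0593%) passed an adjusted p of 0.05 in edgeR, all with a higher log2 fold change in c9007 than in c6186. Within c6186 their log2 fold changes ran from -1.52 to -1.17, lower in tubular conceptuses, and within c9007 from 2.99 to 4.79, higher in tubular conceptuses. As plain differences of mean log2 CPM, with no sex term, they ran from -1.50 to -1.13 in c6186 and from 2.19 to 3.80 in c9007. The 8 genes lie on 7 chromosomes or scaffolds and all have several exons. DESeq2 called 109 genes for this difference, 106 of them higher in c9007. The low-count filter, described below, treats the codes unequally. The 4 ovoid conceptuses of c6186 are enough to pass a gene, while the 2 ovoid conceptuses of c9007 are not. The direction that these calls share is thus not independent of the filter.

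The median of the 8 genes was 36.9, 32.0, 66.4 and 60.9 CPM in the ovoid and 10.6 and 34.5 CPM in the tubular conceptuses of c6186. In c9007 it was 0.855 and 1.01 CPM in the ovoid and 14.1 and 5.07 CPM in the tubular conceptuses. The tubular conceptuses of both codes were thus closer to each other than the ovoid ones were, and the widest gap was between the ovoid conceptuses of c6186 and those of c9007. In 9 of the 10 controls the median was 0.466 to 5.73 CPM, unscaled by TMM factors. Ovoid control replicate 3, the library of lowest depth with 329666 counts, had 153 CPM. The call rested on each of 9 libraries: without any 1 of the ovoid replicates 2 to 6 or the 4 tubular replicates edgeR called 0, and without ovoid replicate 1 it called 18.

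**Figure D4:**
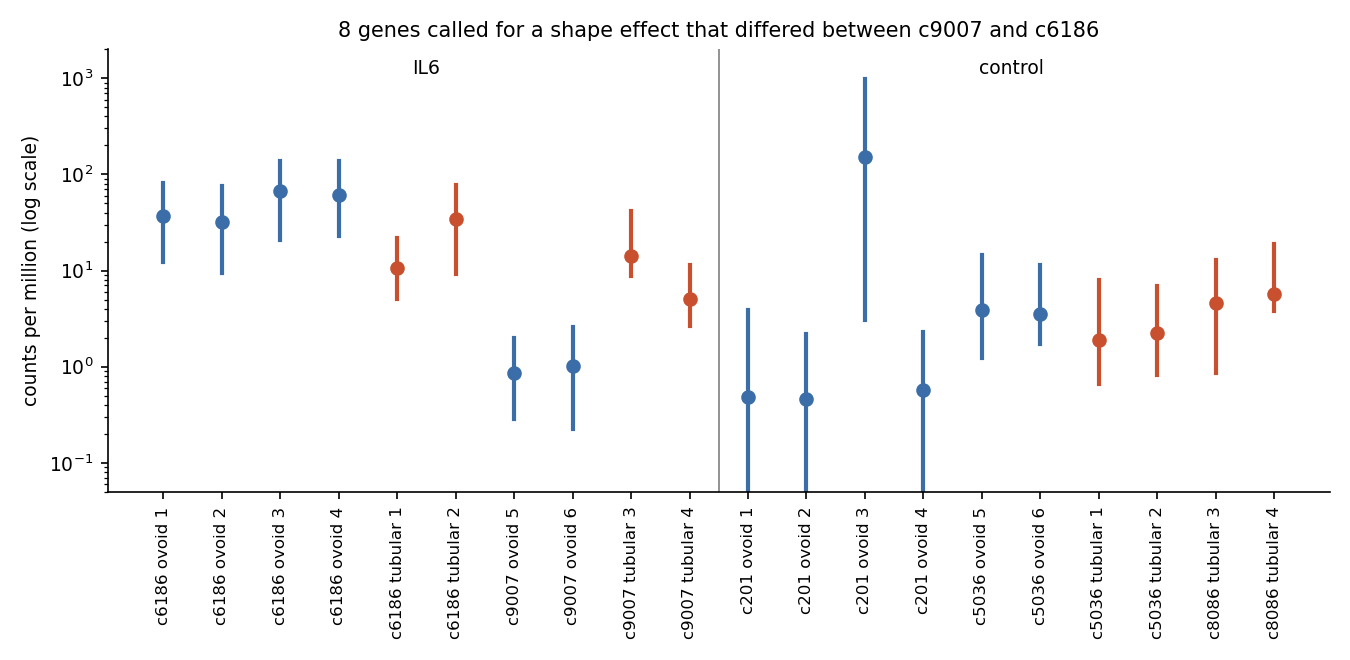
CPM (vertical axis, log scale) of the 8 genes called for a shape difference that was not the same in c9007 and c6186, per conceptus, with a point at the median and a line from the lowest to the highest gene, cut at the lower edge of the axis where a gene is at 0. Ovoid conceptuses are blue and tubular ones orange, IL6 libraries stand on the left and controls on the right, and the medians of the ovoid conceptuses of c9007 lie below all other IL6 conceptuses.

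Genes chosen in 1 code were read in the other as plain differences of mean log2 CPM, with no sex term, so that the 2 values share no library. Within c9007, 80 genes were above 2, and in c6186 63 of them were negative and 17 positive, with a median of -1.17. Their median level was 0.808 and 0.788 CPM in the ovoid and 8.64 and 3.95 CPM in the tubular conceptuses of c9007. It was 12.0, 11.2, 9.96 and 15.5 CPM in the ovoid and 4.52 and 9.38 CPM in the tubular conceptuses of c6186. The default edgeR filter keeps a gene only if enough libraries reach a minimum level, as many as the smaller shape group holds. The 2 tubular conceptuses of c9007 are fewer than that, so genes low in its ovoid conceptuses also had to reach that level in c6186. The signs of these 80 genes in c6186 are thus not independent of the filter. The 26 genes below -2 within c9007 divided into 15 positive and 11 negative in c6186. Read the other way, the 44 genes above 2 within c6186 mostly had the same sign in c9007, 32 positive and 12 negative. The 153 genes below -2 within c6186 were mostly of opposite sign, 106 positive and 47 negative. The signs of the 26, 44 and 153 genes are not independent of the filter either. A gene can pass through the 4 ovoid conceptuses of c6186 alone, at any level in c9007, but not through 2 conceptuses alone. Over all 13486 genes tested, 7277 (53.96%) had the same sign in both codes.

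In a fit of c9007 alone the sex term takes up tubular replicate 4, the only male of that code. Its 67 called genes of 14271 (0.469%; 48 higher, 19 lower) therefore compare tubular replicate 3 with 2 ovoid conceptuses, on 1 residual degree of freedom, and are a difference of that conceptus rather than of the shape. All 8 genes called for the difference between codes were among the 48. The fit of c6186 alone called 0 genes, with 337 at an unadjusted p under 0.05.

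**Figure D5:**
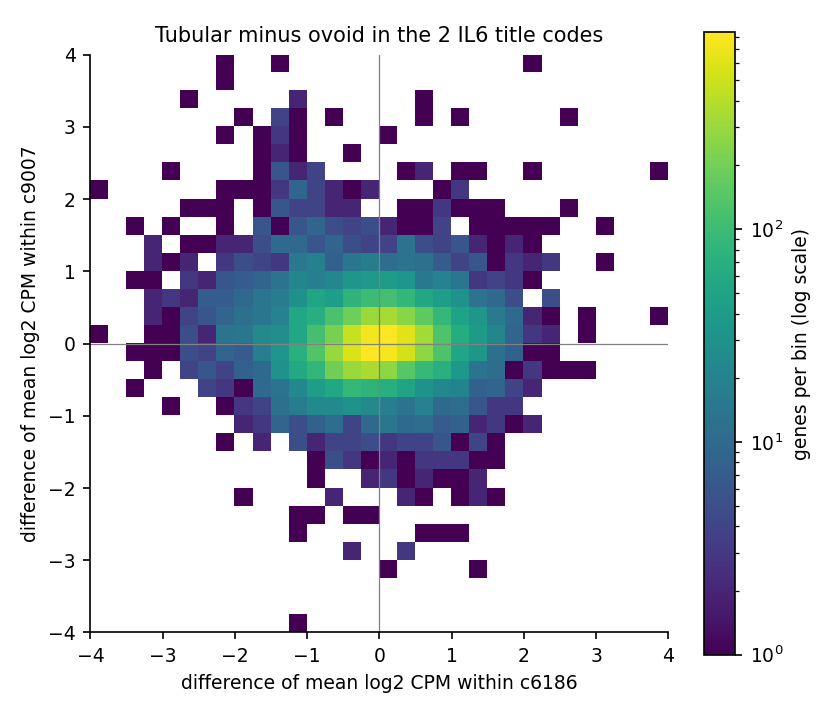
Number of genes (colour, log scale) by difference of mean log2 CPM, tubular minus ovoid with no sex term, within c6186 (horizontal axis) and within c9007 (vertical axis), in bins of 0.25, with values beyond the axes placed in the outermost bins. Genes with values above 2 in c9007 lie mostly to the left of 0, as 63 of 80 do, a share that is not independent of the filter.

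No gene had a shape difference that was detectably different between IL6 and control conceptuses. With all 20 libraries, 0 of 14875 genes (0%) passed in edgeR, and DESeq2 called 0. An unadjusted p under 0.05 was found for 101 of the 14875 genes by edgeR and for 190 by DESeq2. Both are below the 5% that this threshold passes on average where no gene differs. The control difference rests on 4 conceptuses of c5036 of which 1 is female, so this comparison is imprecise. For the 4 identifiers above, the IL6 difference exceeded the control one by 1.23 ± 0.59 for ENSBTAG00000013888 and 1.13 ± 0.86 for ENSBTAG00000015510 on the log2 scale (SE; edgeR adjusted p = 1 for each). It was lower than the control one for ENSBTAG00000048743, by -0.81 ± 0.66, and for ENSBTAG00000038476, by -0.56 ± 0.54 (SE; edgeR adjusted p = 1 for each). Treatment is nested in title code, so a difference between treatments cannot be told apart from one between codes.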

How the data were processed

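The authors deposited raw counts of read pairs per Ensembl gene, 1 file per conceptus, made with featureCounts 2.0.1 over exons, without strand and ignoring duplicates, per the file headers. These headers name Ensembl release 105 of ARS-UCD1.2. The submitters' processing notes name HISAT2, SAMtools and Picard without settings. Of 27607 identifiers, 0 matched the gene table at hand, so 18 gene lists written by symbol could not be described, and groups by chromosome and exon length took their place. Members and lists were chosen with earlier results of these data known. At most 2 identifiers per direction are printed, those of smallest p whose mean log2 CPM reaches 1. The default filter of edgeR 4.0.16 left 13486 genes. A robust quasi-likelihood fit with TMM factors held title code, sex and shape, and adjusted p under 0.05 was the threshold. The codes were also fitted apart, and the shape difference was tested between codes and, over 20 libraries, between treatments. Centred values used log2 CPM with a prior count of 2. Library values were compared by exact permutation within code, without regard to sex. DESeq2 1.42.0, limma 3.58.1, R 4.3.3 and Python 3.11.15 were used. The fits were also run on simulated counts with the same dispersion for every gene and no outlying library. Those runs do not cover libraries that stand apart. The labels call each sample a whole individual conceptus, while litter, recipient and day are not given, so p-values measure the spread between these conceptuses.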

Additional observations from a re-analysis of the deposited data

Results flagged for a closer look

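Ovoid replicate 1 had a median Spearman correlation across genes of 0.856 with the other 9 IL6 libraries, far from the other ovoid conceptuses. In genes of over 500 and up to 1000 nt of exon, the median centred log2 CPM of ovoid replicate 2 was -0.27 and that of tubular replicate 1 was -0.44, each far below the rest of its shape. In genes of over 200 and up to 1000 nt, tubular replicate 1 was at -0.47, again far from the other tubular conceptuses. Such gaps were looked for in 46 groups of values and found in 4, and chance gives about 1 in 20. For 8 genes the shape difference itself differed between c9007 and c6186 (edgeR adjusted p under 0.05).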

How the results depend on the processing

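With 10 libraries and 2 tubular conceptuses per title code, small differences were not detectable. Of 575 values recomputed under other settings, 2 with a test changed direction, neither past its threshold: over the fits that leave out 1 library, the difference in genes with a count ran from -19.7 (without tubular replicate 2) to 535 (without tubular replicate 1), and that in the share of the 10 most abundant genes from -0.47 points (without tubular replicate 1) to 2.23 points (without tubular replicate 2). Medians near 0 changed sign 6 times: all genes to 0.00088 with sample quality weights, chromosome 8 to 0.03 in c9007 alone, and over 2000 and up to 4000 nt 4 times, at most to -0.01. edgeR called 0 genes between the shapes under every other setting run over both codes, DESeq2 called 5, and c9007 alone, where the sex term leaves 1 tubular conceptus, gave 67. Genes at an unadjusted p under 0.05 numbered 625 with no low-count filter, 557 without the sex term, 738 with the 19 libraries that leave out ovoid control replicate 3, 875 with sample quality weights, 1093 in c9007 alone and 91 with a minimum absolute log2 fold change of 0.5, against 369. Without 1 conceptus they ran from 189 (without tubular replicate 1) to 870 (without ovoid replicate 2). Genes that did not overlap within either code, 392 in all, ran from 477 to 2166 without 1 conceptus, and leaving out a conceptus cannot lower this count. The highest was without tubular replicate 2, and without tubular replicate 1 it was 637. Each of these 2 counts leaves 1 tubular conceptus in c6186. All counts without 1 conceptus are of the same 13486 genes and leave fewer than 90 ways to assign shape within title code. More genes would then fall in each direction where shape makes no difference. These counts can therefore not be set against the share of 1 in 90 or read as a gain. For the difference between codes, DESeq2 called 109 against 8, calls ran from 0 to 18 without 1 conceptus, and genes at an unadjusted p under 0.05 from 289 to 902. For the difference between treatments these were 190 with DESeq2 and 162 with the 19 libraries. The cause of these shifts was not tested. The log2 fold changes of the 4 identifiers kept their sign under each setting, from 0.98 to 1.91 (in c9007 alone) for ENSBTAG00000013888, 0.83 to 1.86 for ENSBTAG00000015510, -1.01 to -0.76 for ENSBTAG00000048743 and -1.13 to -0.85 for ENSBTAG00000038476. The title code served as the block. No paired analysis was possible because replicate numbers follow accession order and pair no conceptuses. Leaving out conceptuses for the counts without overlap and for both differences, the 19 libraries for the treatments, and differences of mean log2 CPM within code were chosen after seeing the data.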
